A study of Homo sapiens with 6 samples.

Results

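Microfibrils are thin fibres of the extracellular matrix built from fibrillins, on which latent TGF-β is stored and elastic fibres are laid down. The 10 genes examined here encode their core proteins and close associates. They were followed in OVCAR-3 cells, an established line derived from a human ovarian carcinoma, and are MFAP2, MFAP4 and MFAP5, the fibrillins FBN1 and FBN2, the latent TGF-β binding proteins LTBP1, LTBP2, LTBP3 and LTBP4, and EFEMP1. Gene expression was measured by RNA-seq in OV3/SCR cells, which stably carry a scrambled pRS shRNA plasmid, and in OV3/COX1KD cells, which carry a pRS shRNA plasmid against COX-1, the product of PTGS1. Each condition had 3 libraries from independent passages grown in RPMI-1640 with 10% FBS, and both lines had been selected with puromycin. The RNA of each condition came from 1 stable clone, so differences between the clones and effects of the knockdown cannot be told apart. The question was how the expression of these genes differed between OV3/SCR and OV3/COX1KD cells. The genes were taken from the count table by symbol, and all 10 were found among its 34811 genes. The list itself was selected on the values of this same comparison, that is on the counts in OV3/COX1KD against OV3/SCR, so for the 10 genes the differences between conditions are described and not tested.

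In a microfibril, fibrillin molecules are joined end to end into a string of beads. MFAP2 (MAGP-1) and MFAP5 (MAGP-2) are small related glycoproteins that bind the beads, and MFAP4 is an unrelated protein with a fibrinogen-like domain that binds elastin. The LTBPs resemble fibrillins and lie along the fibre, where LTBP1, LTBP3 and LTBP4 hold the latent form of TGF-β until it is released by integrins or proteases, whereas LTBP2 does not carry it. EFEMP1 (fibulin-3) belongs to the fibulins, which link microfibrils to elastin and to basement membranes. These proteins are made mainly by mesenchymal cells, but carcinoma cells also express some of them.

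Between 25291505 and 27391538 reads per library were assigned to genes, and 3 counts, taken as the smallest detectable level, corresponded to between 0.113 and 0.120 CPM (TMM-scaled counts relative to the library total). That limit was set by choice and makes no allowance for PCR copies of a molecule, which are counted as separate reads. The targeted gene, PTGS1, was at 73.3% of its control level in OV3/COX1KD cells (log2 fold change -0.45, standard error 0.057, edgeR FDR = 1.3e-06). In the paper, the knockdown was also seen as lower COX-1 protein and lower prostaglandin production, which are not part of these data. All 8 epithelial carcinoma markers examined were expressed, with a summed level between 4554 and 4606 CPM in OV3/SCR and between 6244 and 6424 CPM in OV3/COX1KD libraries. Of these, 7 rose and PAX8, a lineage marker of serous ovarian carcinoma, fell from 756 to 447 CPM (log2 fold change -0.76, edgeR FDR = 4.3e-13). The summed level of 8 fibroblast markers was between 11.3 and 12.0 CPM in OV3/SCR and between 6.87 and 7.54 CPM in OV3/COX1KD libraries, most of it from COL1A1. COL3A1 and LUM had 0 counts in every library except OV3/COX1KD replicate 3, which had 4 and 1. PDGFRA was counted 9, 5 and 8 times in OV3/SCR and 1, 4 and 4 times in OV3/COX1KD replicates 1 to 3. THY1 was counted 1, 2 and 2 times against 1, 1 and 0 times. DCN and COL1A2 were counted between 4 and 24 times in every library, and PDGFRB was counted 2, 3 and 3 times in OV3/SCR and 6 times in each OV3/COX1KD library. Of 4 markers of leucocytes and endothelium, the 3 with values, PTPRC, CD68 and CDH5, summed to less than 0.5 CPM in every library. PECAM1 gave no value, so CDH5 was the only endothelial marker read. The fibroblast sum was lower in the same libraries as MFAP5 and FBN1, and its part in their values was not tested. In bulk RNA, fewer cells that express a gene and less RNA per cell cannot be told apart. OV3/COX1KD replicate 2 stood somewhat apart from the others of its condition, its chi-square per degree of freedom being 4.44 and 5.74 against them, compared with 1.81 between replicates 1 and 3 and between 1.74 and 2.91 among OV3/SCR libraries. Values without this library are given for FBN1, FBN2, LTBP1, LTBP2 and EFEMP1, in which it was the lowest of its condition. For FBN1, FBN2, LTBP1 and LTBP2, but not EFEMP1, OV3/SCR replicate 2 was also the lowest of its condition. For the other genes, the log2 fold changes without it were 5.29 for MFAP2, -1.66 for MFAP5, -0.26 for MFAP4, -0.12 for LTBP3 and 0.49 for LTBP4.

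The 10 genes did not move as a group. By normalized CPM, all 3 OV3/COX1KD libraries were above all 3 OV3/SCR libraries for MFAP2, FBN2, LTBP2, LTBP4 and EFEMP1, and below them for MFAP5, FBN1, LTBP1 and LTBP3, while the conditions overlapped for MFAP4. Such a separation was also seen in 63.2% of the 17309 genes that passed the filter on low counts. All 10 genes passed that filter, MFAP2 only through its level in OV3/COX1KD cells. At an edgeR FDR under 0.01, 9 of the 10 were called, compared with 47.9% of all tested genes, 5 of them higher (25.8% of all tested genes) and 4 lower (22.1%). With a fold change above 2.5 in addition, 3 were called (3.92% of all tested genes), 1 higher (1.58%) and 2 lower (2.34%). Since the list was chosen from this comparison, nothing is read from these counts. The median log2 fold change of the 10 genes was 0.22, and that of all tested genes was -0.0087. Their summed level was 672 ± 8.81 CPM in OV3/SCR against 744 ± 33.2 CPM in OV3/COX1KD cells (SD, n = 3 each).

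**Figure D1:**
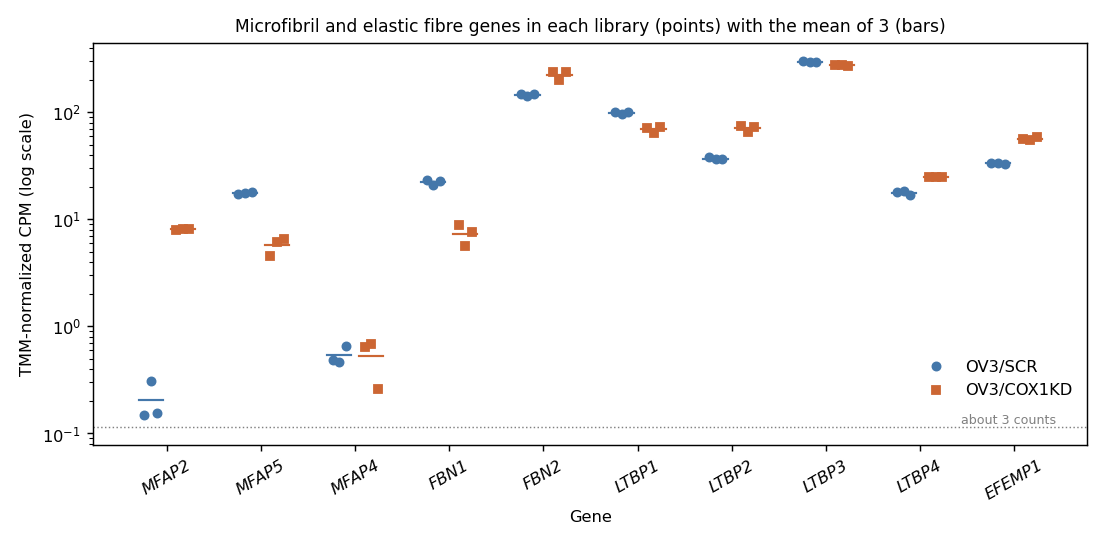
TMM-normalized CPM (log scale) of the 10 genes in each library, with circles for OV3/SCR, squares for OV3/COX1KD and bars for the mean of 3 libraries. MFAP2 goes from near the dotted line at 3 counts to about 8 CPM, MFAP5 and FBN1 are at about 33% of their control level in OV3/COX1KD cells, and the 2 conditions overlap for MFAP4.

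The largest difference was that of MFAP2 (ENSG00000117122, chromosome 1 of GRCh37 from 17300997 to 17307127). It was counted 4, 8 and 4 times in OV3/SCR replicates 1, 2 and 3 and 202, 205 and 217 times in OV3/COX1KD replicates 1, 2 and 3. The control libraries were thus just above the detection floor. The mean level was 0.204 ± 0.0893 CPM in OV3/SCR against 8.12 ± 0.0809 CPM in OV3/COX1KD cells (SD, n = 3 each), a 39.8-fold difference. The fitted log2 fold change was 5.28 (standard error 0.20), and it was 5.69 when OV3/SCR replicate 2, the control library with 8 counts, was left out. Over all alternative settings it lay between 5.11 and 5.69. A long noncoding RNA gene on the opposite strand, ENSG00000286898, covers 13.6% of the exon length of MFAP2, and the library kit does not keep the strand, so reads from that stretch could come from either gene.

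RefSeq gives MFAP2 2 start sites, and the counts, which are per gene, do not say which was used. Both promoter windows (250 bases before to 50 bases after the start, GRCh38.p14, minus strand, 5′ to 3′) are shown because this gene differed most and because the windows differ in composition. In these and the following sequences, capitals mark every match on either strand. The motifs searched were TGANTCA, the site of AP-1 factors, and TGACG, the half-site of the cAMP response element (CRE), of which 2 overlap in the full element TGACGTCA. Also searched were the GC box of Sp1, GGGCGG, the site of TEAD factors, GGAATG, and the E-box, CACGTG. The core of the TATA box, TATAAA, and a paired SMAD site, GTCTAGAC, were in none of the windows of these genes. The shorter SMAD letters CAGACA were in 3 of their 12 windows, those being windows of LTBP1 and LTBP4 that are not printed here, and in 16.9% of all windows.
MFAP2 upstream start, chr1:16981534-16981833: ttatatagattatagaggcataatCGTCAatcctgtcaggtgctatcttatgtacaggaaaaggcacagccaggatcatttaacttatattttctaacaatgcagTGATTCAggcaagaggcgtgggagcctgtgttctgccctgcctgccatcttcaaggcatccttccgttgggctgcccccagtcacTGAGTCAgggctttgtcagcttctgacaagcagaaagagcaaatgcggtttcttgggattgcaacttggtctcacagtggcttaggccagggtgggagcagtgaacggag
MFAP2 downstream start, chr1:16980571-16980870: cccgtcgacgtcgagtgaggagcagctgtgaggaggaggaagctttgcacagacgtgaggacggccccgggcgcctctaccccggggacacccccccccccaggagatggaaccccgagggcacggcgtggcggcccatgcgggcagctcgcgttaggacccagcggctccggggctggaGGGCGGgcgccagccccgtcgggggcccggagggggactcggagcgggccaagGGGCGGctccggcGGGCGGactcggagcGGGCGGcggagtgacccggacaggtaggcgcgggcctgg
The upstream window is 49.0% G and C, above 29.3% of all RefSeq promoter windows. It holds AP-1 matches that begin at bases -145 (TGATTCA) and -60 (TGAGTCA) from the start and 1 CRE half-site at -226. AP-1 matches were found in 7.71% and CRE half-sites in 24.6% of the 35116 windows of the same length. The downstream window is 76.7% G and C and holds 4 GC box matches, at bases -70, -17, -4 and 12, a motif found in 45.0% of all windows. These are matches of letters and say nothing about binding in these cells, and the motifs were chosen after the expression values were known.

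MFAP5, the relative of MFAP2 that also carries an integrin-binding RGD sequence, differed in the opposite direction. MFAP5 (ENSG00000197614, chromosome 12 from 8789942 to 8815484) was counted 457, 462 and 467 times in OV3/SCR and 114, 154 and 174 times in OV3/COX1KD replicates 1 to 3. The control libraries were nearly equal, and the OV3/COX1KD libraries were all lower and more spread, with replicate 1 the lowest. The level was 17.7 ± 0.466 CPM in OV3/SCR against 5.74 ± 1.06 CPM in OV3/COX1KD cells (SD, n = 3 each), or 32.5% of control. Its log2 fold change was -1.62 (standard error 0.096), between -1.72 and -1.47 over the alternatives.

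MFAP4 (ENSG00000166482, chromosome 17 from 19286755 to 19290503) was scarce in both conditions. It was counted 13, 12 and 17 times in OV3/SCR and 16, 17 and 7 times in OV3/COX1KD replicates 1 to 3, so the 2 conditions overlapped. Its log2 fold change was -0.037 (standard error 0.36), and it took either sign, from -0.26 to 0.30, as settings were varied. A difference in MFAP4 was not detectable at this depth, which is not evidence that the level was equal. Exons of MAPK7 on the other strand cover 4.90% of the exon length of MFAP4.

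The 2 fibrillin genes differed in opposite directions. FBN1, the main fibrillin of adult tissues and the gene mutated in Marfan syndrome (ENSG00000166147, chromosome 15 from 48700510 to 48937918), was counted 619, 551 and 584 times in OV3/SCR and 222, 141 and 204 times in OV3/COX1KD replicates 1 to 3. Its level was 22.3 ± 1.07 CPM in OV3/SCR against 7.37 ± 1.62 CPM in OV3/COX1KD cells (SD, n = 3 each), 33.0% of control, with a log2 fold change of -1.60 (standard error 0.099). The lowest of the 6 libraries was OV3/COX1KD replicate 2, and without it the log2 fold change was -1.43. FBN2, the fibrillin that predominates in development (ENSG00000138829, chromosome 5 from 127593601 to 127994878), was counted 3965, 3720 and 3804 times in OV3/SCR and 6014, 5010 and 6302 times in OV3/COX1KD replicates 1 to 3. Every OV3/COX1KD library was above every control library, and replicate 2 was again the lowest of its condition. The level of FBN2 was 146 ± 3.10 CPM in OV3/SCR against 225 ± 21.9 CPM in OV3/COX1KD cells (SD, n = 3 each), a 1.54-fold difference. Its log2 fold change was 0.62 (standard error 0.049), or 0.71 without OV3/COX1KD replicate 2.

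The promoter windows of the 2 fibrillin genes are shown because these paralogs differed in opposite directions (GRCh38.p14, minus strand, 5′ to 3′, capitals as above).
FBN1, chr15:48644921-48645220: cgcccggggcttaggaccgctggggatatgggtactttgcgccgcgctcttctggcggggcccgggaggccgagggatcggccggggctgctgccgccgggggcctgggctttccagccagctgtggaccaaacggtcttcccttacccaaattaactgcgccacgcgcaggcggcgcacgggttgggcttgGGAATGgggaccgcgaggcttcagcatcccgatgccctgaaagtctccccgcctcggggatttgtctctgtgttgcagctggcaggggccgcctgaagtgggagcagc
FBN2, chr5:128538196-128538495: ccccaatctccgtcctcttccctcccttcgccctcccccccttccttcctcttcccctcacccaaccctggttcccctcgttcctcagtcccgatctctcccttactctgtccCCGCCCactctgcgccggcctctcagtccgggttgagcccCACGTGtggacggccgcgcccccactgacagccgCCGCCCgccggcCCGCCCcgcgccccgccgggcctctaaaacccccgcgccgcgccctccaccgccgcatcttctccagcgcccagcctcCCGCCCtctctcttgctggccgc
Both windows are rich in G and C, 68.3% for FBN1 and 72.7% for FBN2, against a median of 58.7% over all windows. The FBN2 window holds 4 GC box matches, at bases -137, -63, -51 and 28, and 1 E-box at base -97, a motif found in 7.26% of all windows. The FBN1 window holds none of these and has 1 TEAD match at base -58, a motif found in 14.0% of all windows.

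Of the carriers of latent TGF-β, LTBP1 (ENSG00000049323, chromosome 2 from 33172020 to 33624576) was counted 2670, 2525 and 2593 times in OV3/SCR and 1811, 1610 and 1954 times in OV3/COX1KD replicates 1 to 3. All 3 OV3/COX1KD libraries were lower, at a mean of 69.9 ± 4.90 CPM (SD, n = 3) against 99.1 ± 1.93 CPM (SD, n = 3) in OV3/SCR. The log2 fold change of LTBP1 was -0.50 (standard error 0.043), and -0.44 without OV3/COX1KD replicate 2. LTBP3, the most abundant of the 10 genes (ENSG00000168056, chromosome 11 from 65306030 to 65326401), was counted 8040, 7723 and 7654 times in OV3/SCR and 7013, 6913 and 7167 times in OV3/COX1KD replicates 1 to 3. The separation was small, 298 ± 3.11 CPM in OV3/SCR against 274 ± 4.96 CPM in OV3/COX1KD cells (SD, n = 3 each), with a log2 fold change of -0.12 (standard error 0.029). With total count scaling this value was -0.20, and it ranged from -0.20 to -0.096 over all alternatives. LTBP4, which also helps to assemble elastic fibres (ENSG00000090006, chromosome 19 from 41098789 to 41135723), was counted 477, 479 and 439 times in OV3/SCR and 621, 624 and 663 times in OV3/COX1KD replicates 1 to 3. It was the carrier that was higher in OV3/COX1KD cells, by 1.40-fold, with a log2 fold change of 0.48 (standard error 0.056).

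LTBP2 (ENSG00000119681, chromosome 14 from 74964886 to 75079081), the family member that binds fibrillin but no latent TGF-β, had the largest difference of the family. It was counted 1015, 947 and 945 times in OV3/SCR and 1889, 1646 and 1960 times in OV3/COX1KD replicates 1 to 3. The level was 37.0 ± 0.946 CPM in OV3/SCR against 71.4 ± 5.04 CPM in OV3/COX1KD cells (SD, n = 3 each), a 1.93-fold difference with a log2 fold change of 0.95 (standard error 0.049). Without OV3/COX1KD replicate 2, the lowest of its condition, this became 1.01.

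LTBP1 has several start sites in RefSeq, and the window of its most upstream one is shown because it holds a full CRE, the element bound by the cAMP-responsive factor CREB (chr2:32946703-32947002, GRCh38.p14, plus strand, 5′ to 3′).
LTBP1 upstream start: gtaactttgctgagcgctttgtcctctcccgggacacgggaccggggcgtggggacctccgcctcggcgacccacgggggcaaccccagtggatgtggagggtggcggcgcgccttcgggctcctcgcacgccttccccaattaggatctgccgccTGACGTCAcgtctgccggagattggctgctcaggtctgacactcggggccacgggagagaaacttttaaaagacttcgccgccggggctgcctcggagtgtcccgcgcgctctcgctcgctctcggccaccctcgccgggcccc
The CRE begins at base -94. The full element was found in 1.85% of all windows and in 1 of the 12 windows listed for 7 of the 10 genes, those of MFAP2, FBN1, FBN2 and the LTBPs. MFAP4, MFAP5 and EFEMP1 were not in the table.

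EFEMP1 (ENSG00000115380, chromosome 2 from 56093102 to 56151274) was counted 904, 871 and 859 times in OV3/SCR and 1423, 1377 and 1560 times in OV3/COX1KD replicates 1 to 3. Replicates were tight in both conditions and did not overlap between them. The level was 33.5 ± 0.352 CPM in OV3/SCR against 56.7 ± 1.81 CPM in OV3/COX1KD cells (SD, n = 3 each), a 1.69-fold difference with a log2 fold change of 0.76 (standard error 0.043), or 0.79 without OV3/COX1KD replicate 2.

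To compare levels between genes, CPM were divided by the exon length of each gene in kilobases (RPKM). In OV3/SCR cells the order was LTBP3 (25.9 RPKM), LTBP1 (13.5), EFEMP1 (8.46), FBN2 (8.20), MFAP5 (4.54), LTBP2 (4.08), LTBP4 (2.19), FBN1 (1.21), MFAP4 (0.255) and MFAP2 (0.0752 RPKM). No 2 neighbours in this order overlapped over the 3 libraries. In OV3/COX1KD cells the order was LTBP3 (23.8 RPKM), EFEMP1 (14.3), FBN2 (12.6), LTBP1 (9.51), LTBP2 (7.87), LTBP4 (3.06), MFAP2 (2.99), MFAP5 (1.48), FBN1 (0.398) and MFAP4 (0.250 RPKM), of which FBN1 and MFAP4 overlapped. MFAP2 thus moved from rank 10 to rank 7, while MFAP5 moved from rank 5 to rank 8. Among all tested genes, LTBP3 was at percentile 90.7 of RPKM in OV3/SCR cells, MFAP5 at percentile 57.3, FBN1 at percentile 31.6 and MFAP2 at percentile 1.95. In OV3/COX1KD cells LTBP3 was at percentile 89.4, MFAP2 at percentile 48.5, MFAP5 at percentile 35.5 and FBN1 at percentile 16.6. When the longest transcript was used as the length, FBN2 lay above EFEMP1 in both conditions, and in OV3/COX1KD cells these 2 genes then overlapped.

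Ratios between paralogs inside a library do not depend on the scaling between libraries. The ratio of MFAP2 to MFAP5, per exon length, was 0.0126, 0.0248 and 0.0123 in OV3/SCR and 2.54, 1.91 and 1.79 in OV3/COX1KD replicates 1 to 3. MFAP5 exceeded MFAP2 in each control library and was exceeded by it in each OV3/COX1KD library. The ratio of FBN2 to FBN1 was 6.65, 7.01 and 6.77 in OV3/SCR and 28.1, 36.9 and 32.1 in OV3/COX1KD replicates 1 to 3. FBN2 was the more abundant fibrillin mRNA in all 6 libraries, and by more in OV3/COX1KD cells. The ratio of LTBP2 to LTBP1 was between 0.295 and 0.308 in OV3/SCR and between 0.812 and 0.844 in OV3/COX1KD libraries. Of the summed RPKM of the 4 LTBP genes, LTBP3 made up 56.7% ± 0.214 in OV3/SCR and 53.8% ± 1.66 in OV3/COX1KD cells (SD, n = 3 each). The share of LTBP1 was 29.6% ± 0.422 (SD, n = 3) and 21.5% ± 1.06 (SD, n = 3), and that of LTBP2 was 8.93% ± 0.126 (SD, n = 3) and 17.8% ± 0.811 (SD, n = 3), in the same order. With the longest transcript as length, the share of LTBP3 was 72.7% and 70.2%, and LTBP1 and LTBP2 kept these directions.

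**Figure D2:**
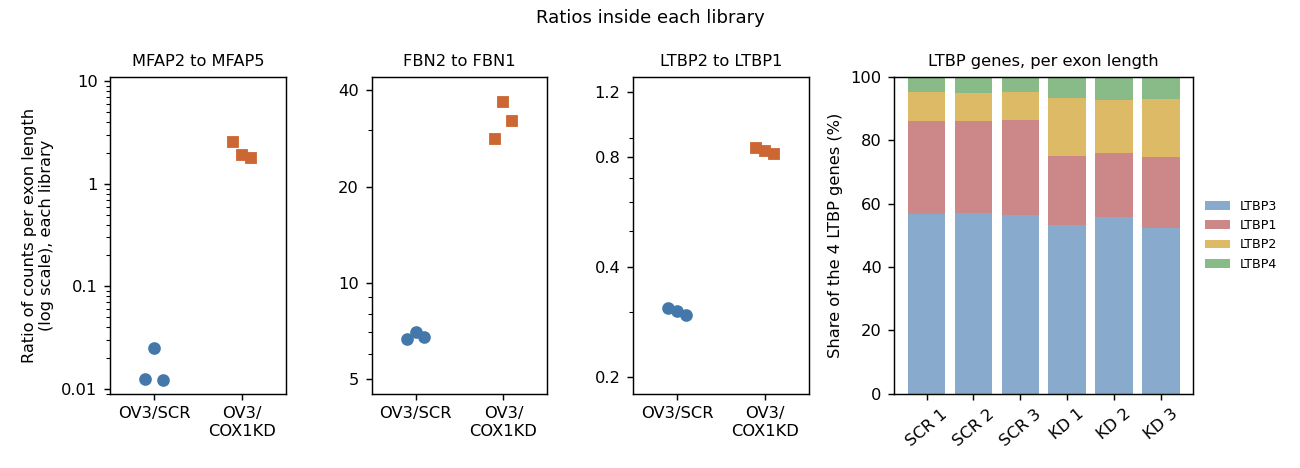
Left, ratios of counts per exon length between paralogs in each library (log scale, circles OV3/SCR, squares OV3/COX1KD), and right, the share of each LTBP gene in the summed counts per exon length of the 4 (bars from 0 to 100%, KD for OV3/COX1KD). All 3 ratios are higher in every OV3/COX1KD library, and the share of LTBP2 goes from about 8.93% to about 17.8%.

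The 10 genes lie on 9 chromosomes, with LTBP1 and EFEMP1 on different parts of chromosome 2. As each condition was 1 clone, the tested genes within 2 Mb of each gene (mean log2 CPM 1 or higher) were examined for a shared difference. The median log2 fold change over the 37 neighbours of MFAP2 was 0.034, and none of them was as high as MFAP2. All 46 neighbours of MFAP5 and all 14 of FBN1 were higher than the gene itself, with medians of -0.057 and 0.089. The medians around FBN2, LTBP2, LTBP4 and EFEMP1 were 0.16, 0.096, -0.015 and 0.049, below the value of the gene in each case. No neighbour reached the value of FBN2 or EFEMP1, while 5 of the 44 neighbours of LTBP2 and 10 of the 82 of LTBP4 did. Within 1 Mb the median was 0.40 over the 4 neighbours of FBN2, of which 3 were higher in OV3/COX1KD cells at an edgeR FDR under 0.01, and 0.24 over the 9 neighbours of FBN1. Around LTBP1 the median of 11 neighbours was 0.20, while 2 of them were as low as LTBP1 or lower. LTBP3 lay inside the distribution of its 123 neighbours, of which 49 were as low or lower.

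**Figure D3:**
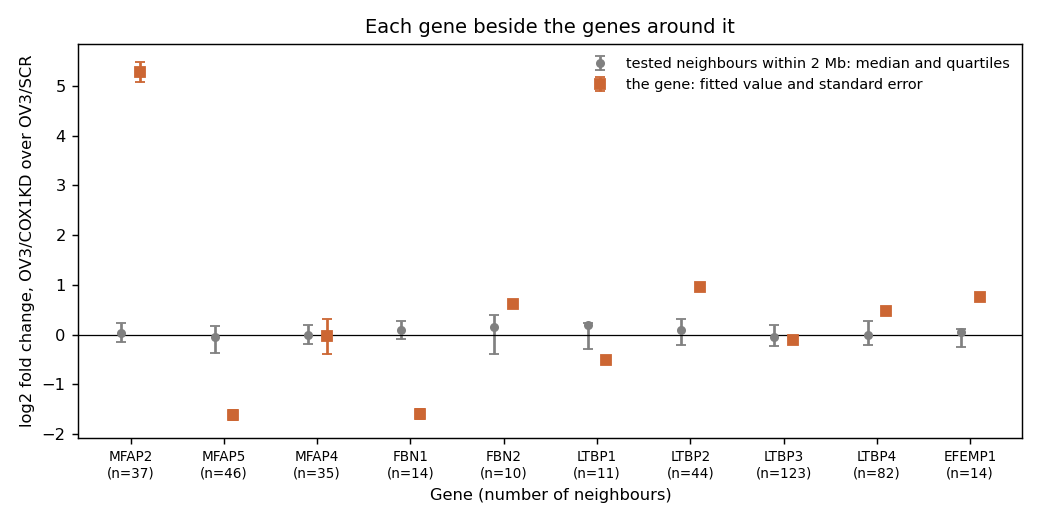
log2 fold change of each gene (squares, bars for the standard error) beside the median and quartiles of the tested genes within 2 Mb (grey circles). Neighbour medians lie between -0.057 and 0.20, whereas MFAP2 is at 5.28 and MFAP5 and FBN1 are near -1.6.

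Further genes of microfibril and elastic fibre biology were read from the same fit over all 17309 tested genes. Their lists were drawn up by function, but with earlier results of these data known, so nothing is read from the counts of calls. Of 51 listed genes, 50 were in the count table and 43 were tested. At an edgeR FDR under 0.01, 7 rose and 18 fell in OV3/COX1KD cells and 18 did not pass. This is 25 of 43 tested genes, beside 47.9% of all tested genes, and their median log2 fold change was -0.16. With the added fold change of 2.5, 1 rose (FBLN2) and 4 fell (FN1, ITGB3, ITGB6 and VCAN), compared with 3.92% of all tested genes. FBLN2 was tested only through its level in OV3/COX1KD cells, and with at least 10 counts required in every library it was removed, leaving 0 higher and 4 lower by edgeR. At an FDR under 0.01 alone, 6 were then higher.

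Elastin itself was almost absent, with 8, 12 and 3 counts of ELN in OV3/SCR and 5, 4 and 7 in OV3/COX1KD replicates 1 to 3. It was too scarce for the main fit, and when all genes were kept it had an edgeR FDR of 0.544. Among the other fibulins, 2 of the 4 tested genes (FBLN1 and FBLN2) rose and none fell at an edgeR FDR under 0.01. Over all tested genes, 25.8% were higher and 22.1% lower. FBLN2 was tested only through its level in OV3/COX1KD cells, so its call as higher is not read as a result. FBLN2, which binds fibrillin and basement membrane proteins, was counted 5, 3 and 4 times in OV3/SCR and 51, 33 and 43 times in OV3/COX1KD replicates 1 to 3 (log2 fold change 3.40, standard error 0.34, edgeR FDR = 5.0e-08). The control libraries were near the floor of 3 counts, so the size of this fold change is loosely set. FBLN1, named here after its values were seen, was more abundant, and rose from 52.5 ± 0.562 to 115 ± 2.15 CPM (SD, n = 3 each, edgeR FDR = 1.4e-15). FBLN5 and EFEMP2, which direct elastic fibre assembly, did not pass (log2 fold changes -0.16 and 0.23, edgeR FDR = 0.302 and 0.117). None of the 5 lysyl oxidases, the enzymes that cross-link elastin and collagen, passed either. Of these, LOX had the smallest FDR, with 78, 63 and 62 counts in OV3/SCR and 40, 40 and 60 in OV3/COX1KD replicates 1 to 3 (log2 fold change -0.50, standard error 0.18, edgeR FDR = 0.0227), and it passed in 2 of 12 alternative settings.

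The list of TGF-β ligands, other carriers and activators had 12 tested genes, of which 9 fell and none rose, beside 22.1% lower and 25.8% higher over all tested genes. ITGB3 and ITGB6 encode the β chains of αv integrins that bind RGD sequences, ITGB6 being part of the integrin that activates TGF-β held by LTBP1. ITGB3 was counted 369, 341 and 327 times in OV3/SCR and 105, 89 and 96 times in OV3/COX1KD replicates 1 to 3 (log2 fold change -1.80, standard error 0.095, edgeR FDR = 3.8e-12). ITGB6 was at 36.4% of its control level (edgeR FDR = 5.3e-13). The others that fell were ITGAV, ITGB5, ITGB8, TGFB2, THBS1, FURIN and BMP1, with log2 fold changes between -0.68 for FURIN, the protease that cleaves pro-TGF-β and profibrillin, and -0.10 for ITGB8, which passed in 8 of 12 alternative settings. Of the ligands, TGFB2 fell (log2 fold change -0.26, standard error 0.041, edgeR FDR = 2.4e-05), whereas TGFB1 at 0.22 (standard error 0.079, edgeR FDR = 0.0217) and TGFB3 at -0.066 (standard error 0.076, edgeR FDR = 0.475) did not pass. TGFB1 passed as higher in 2 of 12 alternative settings, when all genes were kept and without OV3/COX1KD replicate 2 (log2 fold change 0.29, edgeR FDR = 9.2e-04).

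Among matrix proteins that microfibrils assemble on or bind, 3 of 5 tested genes fell and 1 rose, where 22.1% and 25.8% of all tested genes did so. FN1, for fibronectin, on which fibrillin and LTBP1 are deposited, was at 10.8% of control (log2 fold change -3.21, standard error 0.087, edgeR FDR = 1.7e-16). VCAN, for versican, a proteoglycan that binds fibrillin-1, was counted 332, 299 and 314 times in OV3/SCR and 114, 102 and 131 times in OV3/COX1KD replicates 1 to 3 (log2 fold change -1.41, edgeR FDR = 1.3e-10). BGN (biglycan) fell by 0.42 on the log2 scale, and HSPG2, for the basement membrane proteoglycan perlecan, rose from 80.9 ± 1.34 to 167 ± 26.6 CPM (SD, n = 3 each, edgeR FDR = 2.8e-10). Without OV3/COX1KD replicate 2, the lowest of its condition, the log2 fold change of HSPG2 was 1.18. BGN and HSPG2 were named after their values were seen.

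The shares of all tested genes that apply to the smaller lists are again 25.8% higher and 22.1% lower, and 47.9% in either direction. Of FBN3 and 3 genes with MFAP names, 2 rose and 1 fell. The third fibrillin gene, FBN3, rose by 0.49 on the log2 scale (edgeR FDR = 1.1e-05), MFAP3L rose by 1.02 (edgeR FDR = 2.7e-08) and MFAP3 fell by 0.51 (edgeR FDR = 5.5e-10), whereas MFAP1, a splicing factor in spite of its name, did not pass. Of the ADAMTS and ADAMTSL genes tested, 2 of 6 fell, ADAMTSL5 by 0.77 (edgeR FDR = 1.5e-06) and THSD4 (ADAMTSL6) by 0.32 on the log2 scale. MMRN2 was the only one of 3 tested emilin and multimerin genes to pass, with a log2 fold change of -0.32 (edgeR FDR = 1.0e-04). All 4 enzymes that modify EGF-like repeats, of which fibrillins and LTBPs have many, passed, with log2 fold changes of 0.44 for ASPH and 0.51 for KDELC2, and of -0.37 for POGLUT1 and -0.35 for KDELC1. KDELC1 passed in 6 of 12 alternative settings. Apart from the genes the rule singled out, those in this paragraph were named after their values were seen.

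**Figure D4:**
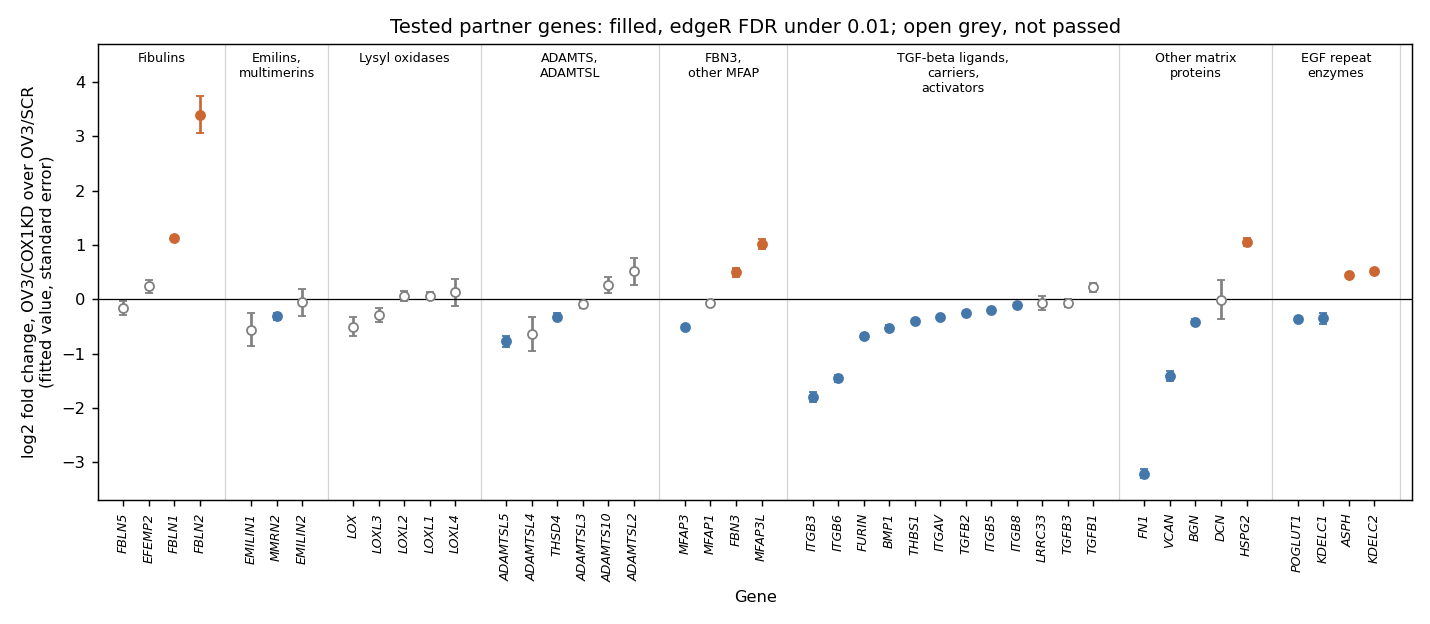
log2 fold change of the 43 tested partner genes by list, with standard errors (filled points, edgeR FDR under 0.01, orange higher and blue lower in OV3/COX1KD; open grey points, not passed). FBLN2 is highest at 3.40 and FN1 lowest at -3.21, none of the 5 lysyl oxidases is filled, and 9 of the 12 genes of the TGF-β list are blue.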

How the data were processed

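RNA-seq libraries were made with an unstranded Illumina TruSeq kit from total RNA. The authors used TopHat2 for alignment to hg19 (GRCh37) and HTSeq for counting, and the table they deposited holds raw read counts for each gene. The TopHat2 version is 2.0 per the processing notes, and the gene annotation and strand setting are not given in the sources used here. Conditions and replicate numbers came from the labels.

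Differences were fitted with edgeR 4.0.16 (R 4.3.3). Libraries were scaled by TMM, filterByExpr kept 17309 of 34811 genes, and glmQLFit and glmQLFTest compared OV3/COX1KD with OV3/SCR, with Benjamini-Hochberg adjustment over the kept genes (edgeR FDR). The paper's thresholds were used, an FDR under 0.01 with or without a fold change above 2.5. A standard error is the log2 fold change divided by the square root of F. P-values measure the spread between passages of 1 clone per condition. The fit was tested on simulated data. DESeq2 1.42.0 was an alternative.

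The 10 genes and the lists were chosen with earlier results of these data known. Partner genes were named where they passed both thresholds, or else by the smallest FDR in their list, with elastin, lysyl oxidases and TGF-β ligands given by counts where too scarce. Any other partner gene was named after its values were seen. Coordinates and exon lengths are from GENCODE 44 lifted to GRCh37, and promoter sequences from RefSeq on GRCh38.p14.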

Additional observations from a re-analysis of the deposited data

How the results depend on the processing

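All directions described for the 10 genes held in every alternative that could be computed, except for MFAP4, which took either sign. At an edgeR FDR under 0.01, LTBP3 was not called when all genes were kept, without OV3/SCR replicate 1 or without OV3/COX1KD replicate 3. Each of these settings called 8 of the 10 genes. With at least 10 counts required in every library, MFAP2 and MFAP4 were removed, and 15552 genes were tested in place of 17309. Of these, 400 passed an FDR of 0.01 with a fold change above 2.5, in place of 679. At an FDR under 0.01 alone, 7961 passed in place of 8293. The reason for the fewer calls was not tested. Total count scaling moved the median log2 fold change of all genes from -0.0087 to -0.087 and the split of calls from 4473 higher and 3820 lower to 3466 higher and 4978 lower. DESeq2 called 7143 genes. The replicate block gave 8233 calls in place of 8293, and 9 of the 10 genes and 25 partner genes as before. Same-numbered libraries deviated together with correlations between 0.0022 and 0.044 across genes, and they were not taken as pairs. By normalized CPM, however, the replicates had the same order in both conditions for MFAP2, MFAP5, FBN1, FBN2, LTBP1, LTBP2 and LTBP3. This was not so for MFAP4, LTBP4 and EFEMP1. Whether same-numbered libraries share more than a number was not tested. At the 7 to 17 counts of MFAP4 the standard error was 0.36 on the log2 scale, so that small differences in such scarce genes could not be seen at this depth.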
